A study of Homo sapiens with 8 samples.

Results

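Chromosome 12q12 carries a run of genes around the amino acid transporter SLC38A2, and 10 of them are described here: SLC38A1, SLC38A2, SLC38A4, SCAF11, ARID2, ANO6, TMEM117, AMIGO2, RPAP3 and NELL2. The genes were chosen by measured values, namely high normalized counts in the control libraries and dense GATA4 peaks on chromosome 12 between positions 44000000 and 48500000, so both of these are descriptions here and carry no test, and the falls reported below share their control values with the choice. Of the 10 genes, 9 have a row in the expression table of 30755 gene symbols, and SLC38A4 has none, so its expression was not analysed here. The window holds 31 of the 2607 GATA4 peaks and 36 of the 5494 HNF4A peaks.

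The 8 samples described by the labels used here are from ESO26, an established cell line of oesophageal adenocarcinoma grown in RPMI-1640 with fetal bovine serum. RNA-seq covered 2 libraries of control cells and 2 libraries of cells with siRNA knockdown of HNF4A (siHNF4A). ChIP-seq covered 1 library for HNF4A and 1 library pulled down with an antibody to Flag for Flag-tagged GATA4, and the 2 libraries from chromosome conformation capture at the HNF4A promoter were not analysed here. The labels give no siRNA sequence, no kind of control, no time after transfection and no account of how tagged GATA4 was introduced. The series' text speaks of RNA-seq in triplicate, where the labels used here name 2 libraries per group. Nothing says that these came from separate cultures, so the p-values measure the spread between libraries, which may be technical.

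SLC38A1 and SLC38A2 encode sodium-coupled carriers that bring small neutral amino acids such as glutamine and alanine into the cell. SLC38A2 is known for its induction when amino acids run short, through the transcription factor ATF4, and SLC38A4 is a related carrier best known from liver. HNF4A is a nuclear receptor and GATA4 a zinc-finger factor that binds the letters GATA and both act in the development of endodermal organs. The other genes of the run have unrelated roles, among them a lipid scramblase, a chromatin remodelling subunit and a co-chaperone.

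The stretches before the starts of 3 of these genes are shown because SLC38A1 was called lower after the knockdown and its neighbour SLC38A2 was not, and ANO6 had the smallest adjusted p among the 10 genes. They are the 250 bases before a gene start in RefSeq on build GRCh38.p14, 5′ to 3′ on the gene's strand, at chr12:46372774-46373023 (minus strand) for SLC38A2, at chr12:46267988-46268237 (minus strand) for the upstream of the 2 SLC38A1 starts, and at chr12:45292440-45292689 (plus strand) for ANO6. Capitals mark matches on either strand to a GATA word (AGATAA, the form that begins with T, or either of these with G as the last letter), to the HNF4 word CAAAGTNCA and to the GC box GGGCGG.
SLC38A2: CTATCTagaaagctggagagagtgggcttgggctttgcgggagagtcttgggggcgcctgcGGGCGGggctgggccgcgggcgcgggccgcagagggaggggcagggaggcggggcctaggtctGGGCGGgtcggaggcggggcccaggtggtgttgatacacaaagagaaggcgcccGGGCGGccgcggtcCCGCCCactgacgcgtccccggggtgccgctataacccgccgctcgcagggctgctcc
SLC38A1: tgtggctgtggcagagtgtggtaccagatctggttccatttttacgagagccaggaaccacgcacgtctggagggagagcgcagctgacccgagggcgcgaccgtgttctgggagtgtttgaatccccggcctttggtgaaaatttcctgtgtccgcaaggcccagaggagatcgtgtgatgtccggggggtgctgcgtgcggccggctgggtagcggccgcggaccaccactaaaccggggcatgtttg
ANO6: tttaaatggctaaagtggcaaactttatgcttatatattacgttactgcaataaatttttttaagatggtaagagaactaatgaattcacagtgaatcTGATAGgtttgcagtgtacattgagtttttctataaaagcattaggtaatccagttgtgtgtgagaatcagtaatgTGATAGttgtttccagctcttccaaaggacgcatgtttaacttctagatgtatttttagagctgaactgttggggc
The SLC38A2 stretch was 73.6% G or C with 26 CpG pairs, held 4 GC boxes and began with 1 GATA match. The SLC38A1 stretch was 61.6% G or C with 19 CpG pairs and held none of the marked letters. The other SLC38A1 start differed: its stretch, at chr12:46266517-46266766, was 42.4% G or C with 5 CpG pairs and held 1 GC box and TATAAA. The ANO6 stretch was 33.6% G or C with 2 CpG pairs, and held 2 GATA matches and the letters TATAAA. It belongs to the only ANO6 start listed here, and other starts of ANO6, if any, were not examined. Among 35116 such stretches of all RefSeq genes in the table, 22.3% held a GATA match, 42.6% a GC box, 10.7% TATAAA and 0.940% the HNF4 letters, and the median was 58% G or C. No marked matches overlapped one another in the stretches of the 8 genes that had an entry, and none of the 8 held the HNF4 letters. ARID2 and NELL2 had no entry. The peaks below are on another build, hg19, so these stretches were not set against them, and a match in the letters is a description only.

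HNF4A itself, the targeted gene, stood at 4129 and 3937 normalized counts in the control libraries and at 1139.8 and 932 in the siHNF4A libraries, which left 25.7% of the control mean. Its log2 fold change was −1.97 (SE 0.095, adjusted p = 1.59e-05, limma). The normalized counts of all genes summed to between 17912507 and 18613685 per library. Between 5479 and 5640 symbols were listed at 0 in the control libraries against 4260 to 4362 in the siHNF4A libraries. Columnar epithelial markers were high in all 4 libraries, with 6 markers summing to between 88042 and 90888 normalized counts in the controls and between 81316 and 83022 after knockdown. Of these, EPCAM, KRT8 and KRT18 fell, KRT19 rose, and CDH1 and VIL1 did not pass the test. The siHNF4A values of the other lists summed to between 18.4 and 36.2 for squamous markers (4 markers, TP63 without a row and KRT6A at 0 in all libraries), 235 and 238 for fibroblast markers (5 markers, LUM without a row), 29.8 and 66.5 for the leukocyte markers PTPRC and CD68 and 47.2 and 64.0 for endothelial markers (4 markers, PECAM1 and KDR without a row). In the controls these sums were 14.4 to 33.3, 132 to 210.2, 54.6 to 58.6 and 15.2 to 24.6. KRT14 and VWF were called higher, but with control means of 1.46 and 7.62 and siHNF4A means of 19.0 and 42.0 normalized counts they passed the filter through the siHNF4A libraries alone, so these calls support nothing. KRT14 was not tested with either siHNF4A library left out. The call of KRT19 was lost with control replicate 1 or either siHNF4A library left out, and that of VWF without siHNF4A replicate 1. The part of these differences in the results below was not tested.

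SLC38A1 fell after HNF4A knockdown, while its neighbour SLC38A2 did not pass the test. SLC38A1 stood at 36429.7 and 36190 normalized counts in the controls and at 29714 and 30519 in the siHNF4A libraries. Both knockdown libraries lay below both controls, at 82.9% of the control mean, with means of 36309.8 ± 169.5 and 30117 ± 569 (SD, n = 2 libraries each). The log2 fold change was −0.27 (SE 0.044, adjusted p = 0.00404, limma over 15577 genes with a mean of at least 10). Without siHNF4A replicate 1 the adjusted p of limma was 0.0671, so this call needed that library.

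SLC38A2 stood at 5018 and 4681 normalized counts in the controls and at 5149.7 and 5188 after knockdown. The siHNF4A libraries lay above both controls and close to each other, but the means differed by less than the gap between the controls. Its log2 fold change was 0.093 (SE 0.060, adjusted p = 0.351, limma), and it was 0.14 without control replicate 1, 0.043 without control replicate 2 and 0.15 after quantile normalization. The ratio of SLC38A1 to SLC38A2 was 7.26 and 7.73 in the controls and 5.77 and 5.88 after knockdown, or 7.50 ± 0.33 against 5.83 ± 0.080 (SD, n = 2). The ratios of the groups did not overlap, and the exact two-sided permutation p of 0.333 is the smallest that 2 against 2 libraries can give. Normalized counts are not divided by transcript length, so the ratio compares libraries and not the amounts of the 2 transcripts.

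**Figure D1:**
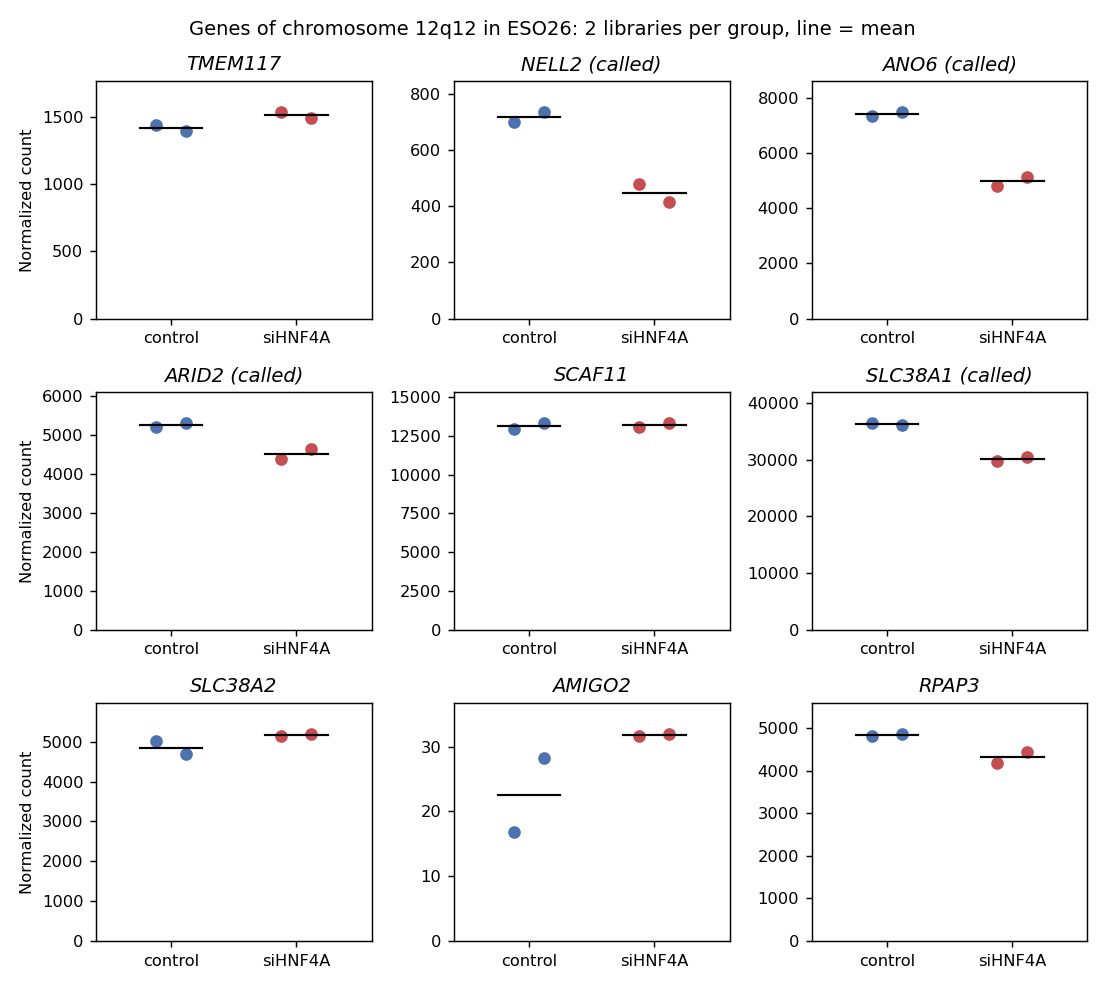
Normalized counts (y axis, from 0) of the 9 measured genes in the 2 control and 2 siHNF4A libraries; each point is a library and each line a group mean. SLC38A1, ARID2, ANO6 and NELL2 were called lower, and the SLC38A2 points after knockdown sit at 5149.7 and 5188, just above the controls.

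Among the other genes, 3 fell and none rose. ANO6 encodes a calcium-activated scramblase that exposes phosphatidylserine at the cell surface. It stood at 7358 and 7489 normalized counts in the controls and at 4821 and 5125 after knockdown. The groups were well apart: 67.0% of the control mean remained, with a log2 fold change of −0.58 (SE 0.058, adjusted p = 0.000358, limma). NELL2, a secreted glycoprotein with EGF-like repeats, stood at 698 and 735 in the controls and at 480.4 and 414 after knockdown. Its log2 fold change of −0.68 (SE 0.11, adjusted p = 0.00392, limma) left 62.5% of the control mean. ARID2, the DNA-binding subunit that defines the PBAF chromatin remodelling complex, stood at 5191 and 5300.3 in the controls and at 4371 and 4649 after knockdown. Its log2 fold change was −0.22 (SE 0.060, adjusted p = 0.0385, limma), the weakest of the called falls. The ARID2 call was lost without control replicate 2, without siHNF4A replicate 1 and without siHNF4A replicate 2, with adjusted p from 0.0876 to 0.239 in limma, and also with no filter on low values (0.122) or after quantile normalization (0.0830).

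RPAP3, a co-chaperone of the R2TP complex that helps assemble RNA polymerases, stood at 4821 and 4854 normalized counts in the controls and at 4190.03 and 4436 after knockdown. The siHNF4A libraries were the lower ones, but the log2 fold change of −0.17 (SE 0.060) did not pass the test (adjusted p = 0.0978, limma). SCAF11, an SR-related protein linked to pre-mRNA splicing, stood at 12954 and 13319 in the controls and at 13045 and 13297 after knockdown, so its groups overlapped. Its log2 fold change was 0.0039 (SE 0.049, adjusted p = 0.969, limma). TMEM117, a multi-pass membrane protein, stood at 1434 and 1392 in the controls and at 1533 and 1489 after knockdown, with a log2 fold change of 0.097 (SE 0.075, adjusted p = 0.440, limma) that became 0.15 after quantile normalization. AMIGO2, a cell adhesion protein with leucine-rich repeats, was near the floor of the test at 16.8 and 28.2 in the controls and 31.7 and 31.9 after knockdown (log2 fold change 0.53, SE 0.37, adjusted p = 0.392, limma). For AMIGO2 the control libraries differed from each other more than the higher control differed from the knockdown, and leaving out control replicate 1 gave a log2 fold change of 0.17, leaving out control replicate 2 one of 0.88.

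In all, 4 of the 9 measured genes were called, all lower, beside 14.1% of the 15577 tested genes called in either direction, 8.11% called lower and 6.02% called higher. The control counts that chose these genes are also the baseline of each fold change, which favours falls among them, so nothing is read from this count, its direction or the median below. Leaving out siHNF4A replicate 1 reduced the 4 calls to 2, in a fit that called 6.34% of all genes tested. The groups did not overlap for 8 of the 9 genes, beside 57% of all genes tested. The median log2 fold change of the 9 genes was −0.17, beside −0.0073 over all genes tested. Together they made up 0.406% and 0.397% of all normalized counts in the controls and 0.354% and 0.364% after knockdown. Each of these calls used limma with a trend of variance on intensity; without the trend no gene of the table passed, HNF4A included, although 3524 genes and 3 of the 9 had an unadjusted p under 0.05.

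As a description of the values that chose them, SLC38A1 ranked 21 of all symbols by control mean, SCAF11 105, ANO6 321, ARID2 579, SLC38A2 654 and RPAP3 655. TMEM117 ranked 3371, NELL2 5832 and AMIGO2 13496, so high control counts did not extend to every gene of the list. The genes whose values over the 4 libraries were most like those of SLC38A2 were OGT, ERCC6 and H3F3A, with Pearson r of 0.99968, 0.99964 and 0.99958 on the log2 scale among 10917 genes with a mean of at least 100. With 4 libraries such values are easily reached, and 67 genes had r above 0.99.

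The response to the knockdown was mixed along the chromosome. RefSeq order, used for names and neighbours only, lists 52 genes from TMEM117 to RPAP3 and 10 protein-coding genes were taken on either side. Of these 72 genes, 33 had a row, 28 were tested, 9 were called lower and 3 higher, which is 42.9% called beside 14.1% of all genes tested. The 28 include the 9 measured genes, chosen by control counts, which supply 4 of these calls. They also include PCED1B-AS1, which passed the filter only through its siHNF4A libraries (control mean 9.66, siHNF4A mean 22.7). The median control percentile of the 28 was 83.7, while the 14.1% covers genes of all levels. Nothing is read from this share or those below. Without siHNF4A replicate 1, and likewise without siHNF4A replicate 2, 6 of the 28 were called, beside 6.34% and 5.83% of all genes tested. The median log2 fold change of the 28 genes was −0.077 with all libraries and 0.0022 without siHNF4A replicate 1. PCED1B-AS1 is counted in the first of these medians, with the highest value, 1.40.

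The largest fall next to the run was that of TWF1, which encodes the actin-monomer-binding protein twinfilin and overlaps TMEM117 in RefSeq. TWF1 stood at 27297 and 29132 normalized counts in the controls and at 14541 and 13634 after knockdown, a log2 fold change of −1.002 (SE 0.055, adjusted p = 1.98e-05, limma). Since the strand of counting is not stated, reads over the shared part of TWF1 and TMEM117 cannot be told apart. The TWF1 values fell and those of TMEM117 were slightly higher. The same limit holds for PFKM with SENP1, AMIGO2 with PCED1B, and ARID2 with RN7SL246P and KNOP1P2, which overlap in RefSeq. Other falls in the flanks were those of PRICKLE1, a planar polarity protein (log2 fold change −0.65), VDR, the vitamin D receptor (−0.56), PFKM, the muscle-type phosphofructokinase (−0.44), and TMEM106C (−0.20). GXYLT1, a xylosyltransferase that acts on Notch receptors (0.36), ZCRB1, a protein of the minor spliceosome (0.30), and the long noncoding RNA LINC00938 (0.50), which lies between ANO6 and ARID2, rose. Calls of 5 of these genes did not survive leaving out a library: GXYLT1 without siHNF4A replicate 2, LINC00938, PFKM and ZCRB1 with either siHNF4A library left out, and TMEM106C with control replicate 2 or either siHNF4A library left out. The same 5 calls were lost with no filter on low values.

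Genes with high control counts in the flanks that did not pass the test were HDAC7 (3748 ± 117 against 4284 ± 317, SD, n = 2) and PPHLN1 (3604 ± 44.8 against 3639 ± 29.5). Inside the run, the 6 genes with a row that are not among the 10 had low values, summing to between 735 and 785 normalized counts in the controls and between 843 and 961 after knockdown. Of these, 4 were tested and LINC00938 was the one called.

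**Figure D2:**
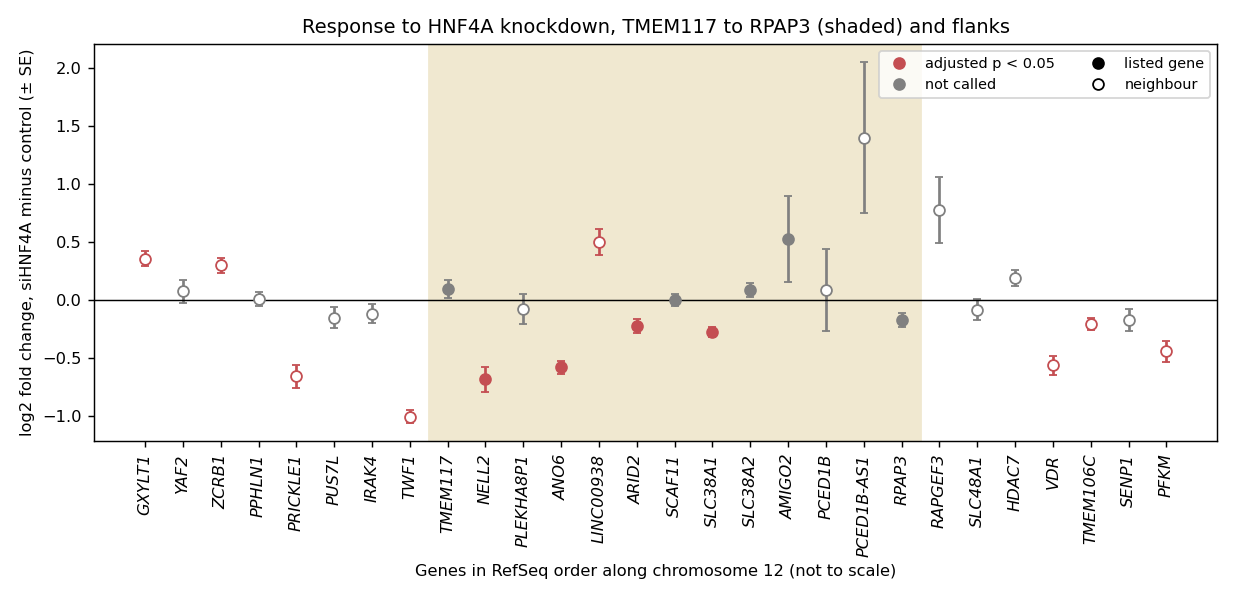
Log2 fold change, siHNF4A minus control, with its SE (bars), for the 28 tested genes in RefSeq order from the left flank through TMEM117 to RPAP3 (shaded) to the right flank. Falls and rises are mixed along the order: ANO6 at −0.58 and ARID2 at −0.22 stand on either side of LINC00938 at 0.50. The highest point, PCED1B-AS1 at 1.40, passed the filter only through its siHNF4A libraries.

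Among relatives and partners of these genes, some were called lower and some higher, and these counts are descriptions of the lists without a test. In the SLC38 family, 10 of 11 genes had a row and were tested. Of these, 2 were called lower and 1, SLC38A8, higher, beside 8.11% and 6.02% of all genes tested. SLC38A8 and SLC38A5, with control means of 6.16 and 8.91, passed the filter only through their siHNF4A libraries. The SLC38A8 call therefore supports nothing, and no share called is given for the family. Beside SLC38A1, SLC38A9, a lysosomal arginine sensor upstream of mTORC1, fell from 348 and 415 to 264 and 232 normalized counts (log2 fold change −0.62, SE 0.14, adjusted p = 0.0181, limma). SLC38A8 stood at 9.22 and 3.10 in the controls and at 40.0 and 53.5 after knockdown. SLC38A5 stood at 15.7 and 2.15 against 8.72 and 17.7, and both genes are given as values only. The SLC38A9 call was lost without control replicate 2 or siHNF4A replicate 2.

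Among 20 genes of the amino acid response, the ATF4 programme to which SLC38A2 belongs, 2 fell and 1 rose, and this share of 15% is near the 14.1% of all genes tested (median −0.079). SLC7A11, the cystine carrier, and SLC7A5, a carrier of large neutral amino acids, fell with log2 fold changes of −0.56 and −0.20, and PHGDH, the first enzyme of serine synthesis, rose by 0.52. ATF4 itself stood at 2679 and 3033 normalized counts in the controls and at 2777 and 2949.55 after knockdown, so its groups overlapped. Of 12 tested genes of glutamine metabolism 3 fell (25% called, beside 14.1% of all genes; median −0.12): GLUD1, the mitochondrial glutamate dehydrogenase (−0.37), PPAT, the first enzyme of purine synthesis (−0.31), and GOT2, the mitochondrial aspartate aminotransferase (−0.28). SLC7A11 lost its call without siHNF4A replicate 1, where its log2 fold change was −0.32, and in the robust fit (adjusted p = 0.0525, limma). Calls were also lost for GLUD1 without siHNF4A replicate 2, PHGDH and PPAT with either siHNF4A library left out, and SLC7A5 and GOT2 with control replicate 2 or either siHNF4A library left out. SLC7A5 further lost its call with the replicate as a block (adjusted p = 0.0581), after rescaling to the same median ratio (0.0540) and after quantile normalization (0.0979, all limma), and GOT2 after quantile normalization (0.0575).

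Within the PBAF complex of ARID2, 1 of 12 genes fell and 2 rose (25% called, beside 14.1% of all genes; median 0.12). ARID2 was the one that fell, and the shared core subunits SMARCE1 (log2 fold change 0.48) and SMARCC1 (0.24) rose, the latter call lost with control replicate 2 or either siHNF4A library left out. Of 4 subunits of the alternative BAF complex, ARID1A alone was called (25%, beside 14.1% of all genes). It fell from 4975 and 5609 to 4068 and 4075 normalized counts (log2 fold change −0.38, SE 0.069, adjusted p = 0.00678, limma). This call was lost with no filter on low values (adjusted p = 0.0584, limma). None of the 10 genes of RPAP3's R2TP and prefoldin-like complex passed the adjusted threshold in limma (1 at an unadjusted p under 0.05, RPAP3 itself), and 8 of them had a log2 fold change below 0, beside 51% of all genes tested. Of 6 tested anoctamins ANO6 alone was called (16.7%, near the 14.1% of all genes). None of 4 SCAF genes (1 at an unadjusted p under 0.05) or 3 AMIGO genes (0 at that level) was called by limma. NELL1, the relative of NELL2, had values of at most 0.833 and was not tested. With no filter, where 2.4% of 30247 genes passed, calls were lost as well for SLC38A9, SLC7A11, SLC7A5, PHGDH, GLUD1, PPAT, GOT2 and SMARCC1, and for the markers KRT14 and KRT19.

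The GATA4 peaks of the window were many and had small q-values for their height. Of the 31 peaks, the strongest, at chr12:44241003-44242560 on build hg19, had the highest fold enrichment of the whole GATA4 list, 39.0. An HNF4A peak at chr12:44241283-44242594 with a fold of 22.3, rank 33 of its list, overlapped it with summits 42 bp apart. The HNF4A peak at chr12:46383527-46385549 had a fold of 27.7, rank 7 of its list, and was 2023 bp wide. A GATA4 peak at chr12:46384559-46385187 (fold 14.9, rank 117) lay within it. Folds and q-values are the authors' values from 1 library per factor, so none of them has a replicate error.

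In all, 6 GATA4 peaks of the window overlapped an HNF4A peak by at least 1 bp, 19.4% of the 31 (exact 95% interval 7.45 to 37.5, counting error only), beside 17.4% (15.9 to 18.9) of the 2576 GATA4 peaks elsewhere. As a share of the HNF4A list, the 6 were 16.7% of 36. The interval for the GATA4 share covers the one elsewhere. The window was chosen for dense GATA4 peaks, which raises the chance that an HNF4A peak meets one, so the HNF4A share is not set against the rest of the list. The other shared sites were weaker in HNF4A: a GATA4 peak at chr12:45585985-45586658 (fold 13.9) met an HNF4A peak with a fold of 4.94, and one at chr12:45653835-45654368 (fold 10.5) met one of 5.70. The last were at chr12:47615420-47615749, with folds of 5.98 for GATA4 and 6.98 for HNF4A, and at chr12:47740295-47740713, with 4.73 and 6.19. Summits of these 4 were between 10 and 111 bp apart.

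Stretches with peaks of 1 factor alone alternated with stretches where peaks of both were interleaved. The longest gap between HNF4A peaks of the window ran for 836 kb, from 46778769 to 47615264, and held 8 GATA4 peaks with folds of 4.39 to 10.9. The longest gap between GATA4 peaks ran for 473 kb, from 47740713 to 48213639, and held 5 HNF4A peaks with folds of 3.32 to 7.01. Groups of 5 peaks less than 50 kb from one to the next lay at chr12:47601038-47670759 for GATA4, over 69.7 kb, and at chr12:48290568-48359753 for HNF4A, over 69.2 kb. The first of these also held HNF4A peaks and the second GATA4 peaks. The median gap between neighbouring peaks was 68.4 kb for GATA4 and 59.8 kb for HNF4A.

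**Figure D3:**
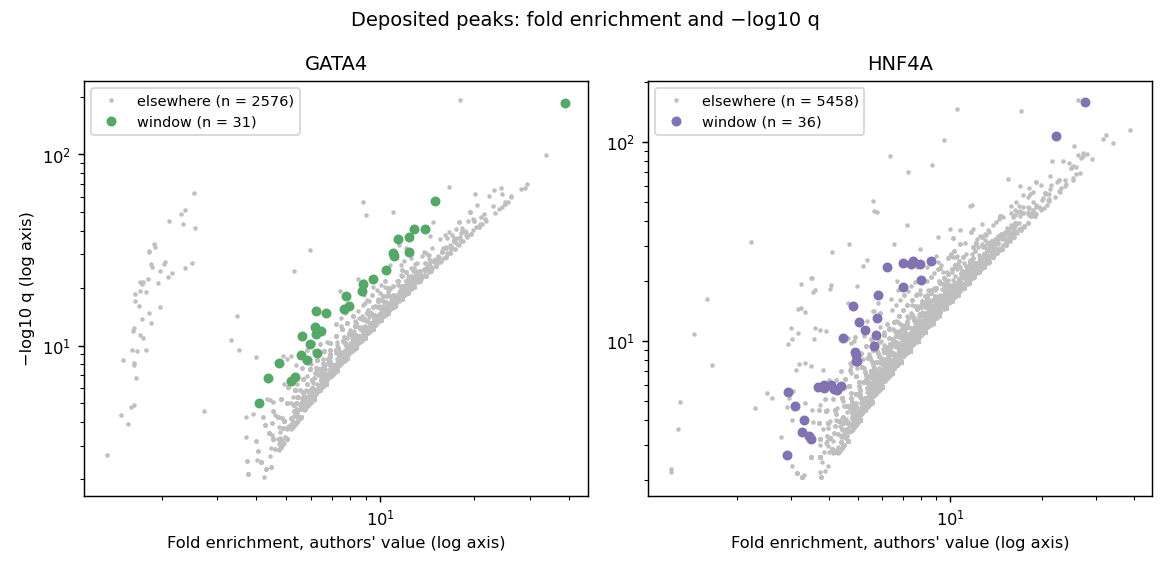
Fold enrichment (x axis, log) against −log10 q (y axis, log) for every deposited peak of GATA4 (left) and HNF4A (right); colour marks the window and grey all peaks elsewhere. At a like fold the window's GATA4 peaks lie along the upper edge of the cloud, and so do most HNF4A peaks of the window, except 7 with folds of 2.91 to 3.51.

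The window stood out less in fold than in q. The median fold of its GATA4 peaks was 7.64, beside 7.29 elsewhere, while the median −log10 q was 15.6 beside 8.59. Its HNF4A peaks had a lower median fold than those elsewhere, 4.91 beside 6.31, and a higher median −log10 q, 9.09 beside 7.76. For each peak, −log10 q was then ranked among peaks outside the window whose fold was within about 10% of its own, where there were at least 20 such peaks. On this scale the 30 GATA4 peaks with a rank had a median percentile of 99.1 and a lowest value of 92.2, and the median elsewhere was 43.6. Of the 35 HNF4A peaks with a rank, 28 were at or above the 90th percentile and the median was 97.8, beside 44.9 elsewhere. The 7 below had folds of 2.91 to 3.51, under those of all 28 others, which began at 3.70. No library was sequenced again, so this description of 2 libraries carries no test.

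The same pattern appeared in both lists and ran beyond the window. The run was extended on either side of the window until a ranked peak fell below the 75th percentile, so the first peaks outside it are low by that rule. All 39 ranked peaks among 40 GATA4 peaks were at or above the 75th percentile from 41112432 to 48333147, over 7.22 Mb. For HNF4A, 33 of 40 ranked peaks among 41 were, from 41112465 to 48359753, over 7.25 Mb. The next GATA4 peaks outside, at chr12:34175315-34175621 and chr12:53318866-53319367, had percentiles of 25.7 and 43.2. The next HNF4A peaks outside, at chr12:40396237-40396759 and chr12:49110661-49111071, had percentiles of 20.4 and 27.4. Over the rest of chromosome 12 the medians were 41.9 for 103 GATA4 peaks and 42.0 for 247 HNF4A peaks. The deposited lists name no input library, and what sets the relation of fold to q in this stretch was not tested.

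**Figure D4:**
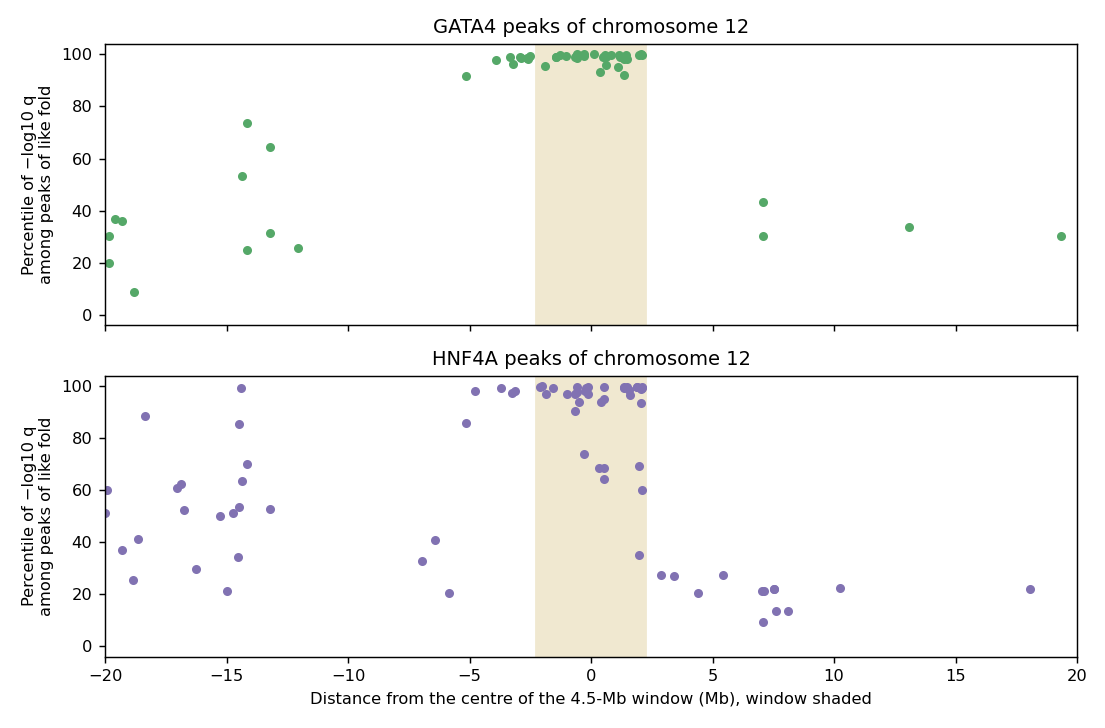
Percentile of −log10 q among peaks of like fold (y axis) for GATA4 and HNF4A peaks (1 point each) of chromosome 12, by distance in Mb, up to 20 on either side, from the centre of the 4.5-Mb window (shaded). The GATA4 points in the shaded part lie at 92.2 or above, and 28 of the 35 ranked HNF4A points there at 90 or above.

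Cut into consecutive windows of 4.5 Mb, the genome had 561 with a GATA4 peak, and the one described here held the most, 31 beside a median of 4. For HNF4A it was 7th by number, with 36 peaks beside a median of 6 in 622 windows. By median percentile it ranked 2 of 237 windows with at least 5 GATA4 peaks and 1 of 402 windows with at least 5 HNF4A peaks. The number of GATA4 peaks chose the window, and a cut fell at each of its edges, while other dense stretches could be divided. All these ranks are therefore descriptions.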

How the data were processed

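The authors deposited RNA-seq values as normalized counts, a signal per gene symbol whose normalization method, aligner and annotation are not given in the sources used here. Whole reads could not be recovered from them, so depth is unknown and no count model was run. The deposited peak lists give a fold (a ratio over a background not described), −log10 p and −log10 q, and a score that follows −log10 q. The submitters' processing notes name Bowtie, Bowtie2, Trim Galore, Picard, MACS2 and hg19 for all samples.

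The siHNF4A and control libraries were fitted by limma 3.58.1 (R 4.3.3, lmFit, eBayes with trend) on log2(normalized count + 1), without a block, in genes with a mean of at least 10. This scale understates fold changes of low genes. P-values were adjusted by Benjamini-Hochberg over all 15577 genes, with calls at 0.05. The script was tested on simulated data. Groups came from the sample titles. The 10 genes, the window and the lists were chosen with earlier results of these data known. Named are HNF4A, the 10 genes, called neighbours and the 5 neighbours with the highest control means, up to 5 called genes of each list, and the 3 genes most like SLC38A2; ATF4, NELL1 and the markers were named after their values were seen. Intervals are exact binomial at 95%. Alternatives were other pseudocounts, filters, scalings and variance models, a replicate block, leaving out each library, a stricter q and other overlaps and window widths.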

Additional observations from a re-analysis of the deposited data

How the results depend on the processing

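With no filter on low values 726 genes passed in all and 6 in the run with its flanks, and ARID2 (−0.22) lost its call; after quantile normalization ARID2 (−0.17) lost it too. Without the variance trend 0 genes passed in limma (3524 at an unadjusted p under 0.05), so 0 of the 10 genes and 0 of the run with its flanks (11 unadjusted), with log2 fold changes as before: HNF4A −1.97, SLC38A1 −0.27, ARID2 −0.22, ANO6 −0.58 and NELL2 −0.68. Leaving out each library gave 906 to 2413 calls in all, 2 to 4 among the 10 genes and 6 to 13 in the run with its flanks, whose median ranged from −0.13 to 0.0022. The range was −0.29 to −0.25 for SLC38A1, −0.26 to −0.17 for ARID2, 0.043 to 0.14 for SLC38A2, 0.17 to 0.88 for AMIGO2, −0.62 to −0.53 for ANO6, −0.79 to −0.57 for NELL2 and −0.016 to 0.024 for SCAF11, which was −0.016 without control replicate 1 and −0.0099 without siHNF4A replicate 2. The cause of these changes was not tested. Windows of 1 Mb put the fullest GATA4 window of the region at rank 2. At −log10 q of at least 5 the window kept 31 GATA4 and 30 HNF4A peaks, and 5 shared peaks overlapped by 50% of both.

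Same-numbered libraries did not deviate together (r = −0.019 over 15577 genes), so the numbers were not taken as pairs; with the replicate as a block 2428 genes passed, 4 of them among the 10 genes and 12 in the run with its flanks, and SLC7A5 lost its call (adjusted p = 0.0581, limma). A lone library in a group was assumed to vary like the other group. The level per coding length was not run. Normalized counts without read numbers and 2 libraries per group limit the precision.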
